A study of Mus musculus with 24 samples.

Results

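The genes described here are 10 genes linked to cellular quiescence and to the FoxO transcription factors: *Foxo1*, *Foxo3*, *Klf2*, *Klf6*, *Tsc22d3*, *Txnip*, *Nr3c1*, *Btg1*, *Btg2* and *Pik3ip1*. They were chosen by name, 10 of the 18193 genes that had a probe set of their own on the array. Each was read from its main probe set, the one with the highest mean signal over all 24 arrays, and all 10 main probe sets passed the filter on dim probe sets. The 10 genes had 22 other probe sets, of which 19 passed the filter and served as a check. 1 more probe set, shared by *Foxo3* and a second gene, was left out.

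The samples were sorted CD4 CD8 double-negative (DN) thymocytes from *IgHμ-TLX1Tg Prkdc Scid/Scid* mice (TLX1), which carry a human *TLX1* transgene, and from *Prkdc Scid/Scid* mice (control), all 6 to 8 weeks old per the labels, while the study's methods give an age range that starts younger. By those methods the mice came from a cross of transgenic mice on a CD1 background with scid mice on an ICR background. Both genotypes carry the scid mutation of *Prkdc*, which encodes the catalytic subunit of DNA-PK, a kinase needed to join antigen receptor gene segments. The transgene is driven by the immunoglobulin heavy chain μ control elements, which are best known from B cells. Each genotype had 4 pools of 2 to 5 mice, and each pool gave 1 array at DN1 (CD44+CD25-), 1 at DN2 (CD44+CD25+) and 1 at DN3 (CD44-CD25+). The female pools were 1 and 4 of TLX1 and 2 and 4 of control, and the remaining pools were male. A pool is the replicate.

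FoxO proteins are transcription factors that stay in the nucleus when signalling through phosphoinositide 3-kinase (PI3K) and Akt is weak, and Akt moves them out of it by phosphorylation. In lymphocytes they switch on genes of survival, of homing and of exit from the cell cycle, among them the interleukin 7 receptor gene and *Klf2*. In the thymus, early progenitors divide after they receive cytokine and Notch signals and rest again at DN3, where rearrangement of the T cell receptor β locus takes place.

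The promoters of 9 of the 10 genes were read from RefSeq windows on GRCm38.p6, from 250 bases before to 50 bases after each start site (11 windows). *Nr3c1* was left out of this reading. The FoxO sequence GTAAACA was searched on both strands, as were the KLF box CACCC, bound by zinc finger factors of the KLF family, and the E-box CACGTG, the core of the carbohydrate response element. None of the 3 motifs contains another. GTAAACA was in the windows of 2 of the 9 genes (*Txnip* and *Btg1*), against 3.65% of all 32851 promoter windows. CACCC was in windows of 4 of the 9 genes (*Klf2*, *Tsc22d3*, *Txnip* and *Pik3ip1*), against 57.5% of all windows. CACGTG was in that of 1 of the 9 (*Klf6*), against 7.15%. The gene counts take any window of a gene, while the percentages are per window. *Tsc22d3* had several windows, and not all of them held CACCC. Shown here are the 250 bases before the start site of the 2 genes with the FoxO letters and of *Klf2* and *Pik3ip1*, the genes with the largest changes between stages in each direction. All 4 lie on the + strand, *Txnip* at chr3:96557707-96557956, *Btg1* at chr10:96616751-96617000, *Klf2* at chr8:72318812-72319061 and *Pik3ip1* at chr11:3330481-3330730. Capitals mark the FoxO and KLF letters on either strand.
Txnip: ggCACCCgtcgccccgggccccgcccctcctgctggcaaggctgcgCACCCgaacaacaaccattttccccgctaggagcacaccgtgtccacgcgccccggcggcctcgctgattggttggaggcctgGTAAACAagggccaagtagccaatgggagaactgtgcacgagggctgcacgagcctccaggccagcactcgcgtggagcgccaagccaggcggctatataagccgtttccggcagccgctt
Btg1: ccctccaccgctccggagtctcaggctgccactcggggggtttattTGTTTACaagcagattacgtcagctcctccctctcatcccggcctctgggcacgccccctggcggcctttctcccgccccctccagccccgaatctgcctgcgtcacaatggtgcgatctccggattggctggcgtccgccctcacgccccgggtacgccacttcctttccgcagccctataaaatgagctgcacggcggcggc
Klf2: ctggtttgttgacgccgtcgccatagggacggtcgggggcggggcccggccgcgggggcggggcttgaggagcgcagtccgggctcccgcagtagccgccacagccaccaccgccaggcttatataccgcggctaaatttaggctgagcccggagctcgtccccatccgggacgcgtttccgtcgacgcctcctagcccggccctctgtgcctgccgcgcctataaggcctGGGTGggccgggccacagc
Pik3ip1: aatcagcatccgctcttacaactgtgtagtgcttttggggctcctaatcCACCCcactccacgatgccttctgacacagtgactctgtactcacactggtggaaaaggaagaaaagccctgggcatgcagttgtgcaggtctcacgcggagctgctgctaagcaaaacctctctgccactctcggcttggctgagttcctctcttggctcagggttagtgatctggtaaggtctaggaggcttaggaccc
The FoxO letters started 121 bases before the start site of *Txnip* and, on the opposite strand, 204 bases before that of *Btg1*. A match of letters is a description of the window and not a measured binding site.

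The values were MAS5 signals, a linear brightness per probe set with a trimmed mean of 150 on every array. The CD25 gate was seen in the data, and the CD44 gate only in part. *Il2ra*, which encodes CD25, had signals of 488 to 1171 at DN1, 4269.6 to 5518 at DN2 and 4323 to 5541 at DN3, and *Cd44* had 892 to 1913, 80.3 to 153 and 9.52 to 29.0. The *Cd44* RNA at DN2 was thus far below that at DN1, although both were sorted as CD44+. Control pool 3 and TLX1 pool 2 had the most cells outside the gates in the study's flow cytometry. At DN1 these pools stood apart, with summed signals of 17 proliferation genes of 37370 in TLX1 pool 2 and 42150 in control pool 3, against 13970 to 23680 in the other 6 pools. At DN3, 3 arrays had probe sets at least 4-fold above every other DN3 array with a signal of at least 100, with 19 on TLX1 pool 3, 13 on TLX1 pool 4 and 9 on control pool 3, against 0 or 1 on the other 5. DN1 arrays also held RNA of other cell types, and in pooled RNA fewer cells of a type and less RNA per cell cannot be told apart.

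Between DN1 and DN2 most of the genes fell, and between DN2 and DN3 some of them rose again. Changes were taken within each pool and averaged over both genotypes, and a call is an adjusted p under 0.05 from limma over all 27022 probe sets kept. From DN1 to DN2, 7 of the 10 genes fell and 2 rose, against 31.2% and 28.5% of all probe sets, so that calls were common at this step in general. Their median log2 change was -1.11, against -0.058 over all probe sets. From DN2 to DN3, 5 of 10 rose and 0 fell, against 6.93% and 4.07% of all probe sets, and the median log2 change was 0.41, against 0.075. At this step 6 of 10 genes were higher in all 8 pools and 0 were lower in all 8, against 9.70% and 6.75% of all probe sets. At the first step these counts were 2 and 6, against 17.1% and 19.7%. From DN1 to DN3, 3 rose and 6 fell, against 30.1% and 25.0%, with 3 higher and 4 lower in all 8 pools, against 20.2% and 18.6%. The plot of signals by stage shows that the falls at DN2 and the smaller rises at DN3 took place in both genotypes.

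**Figure D1:**
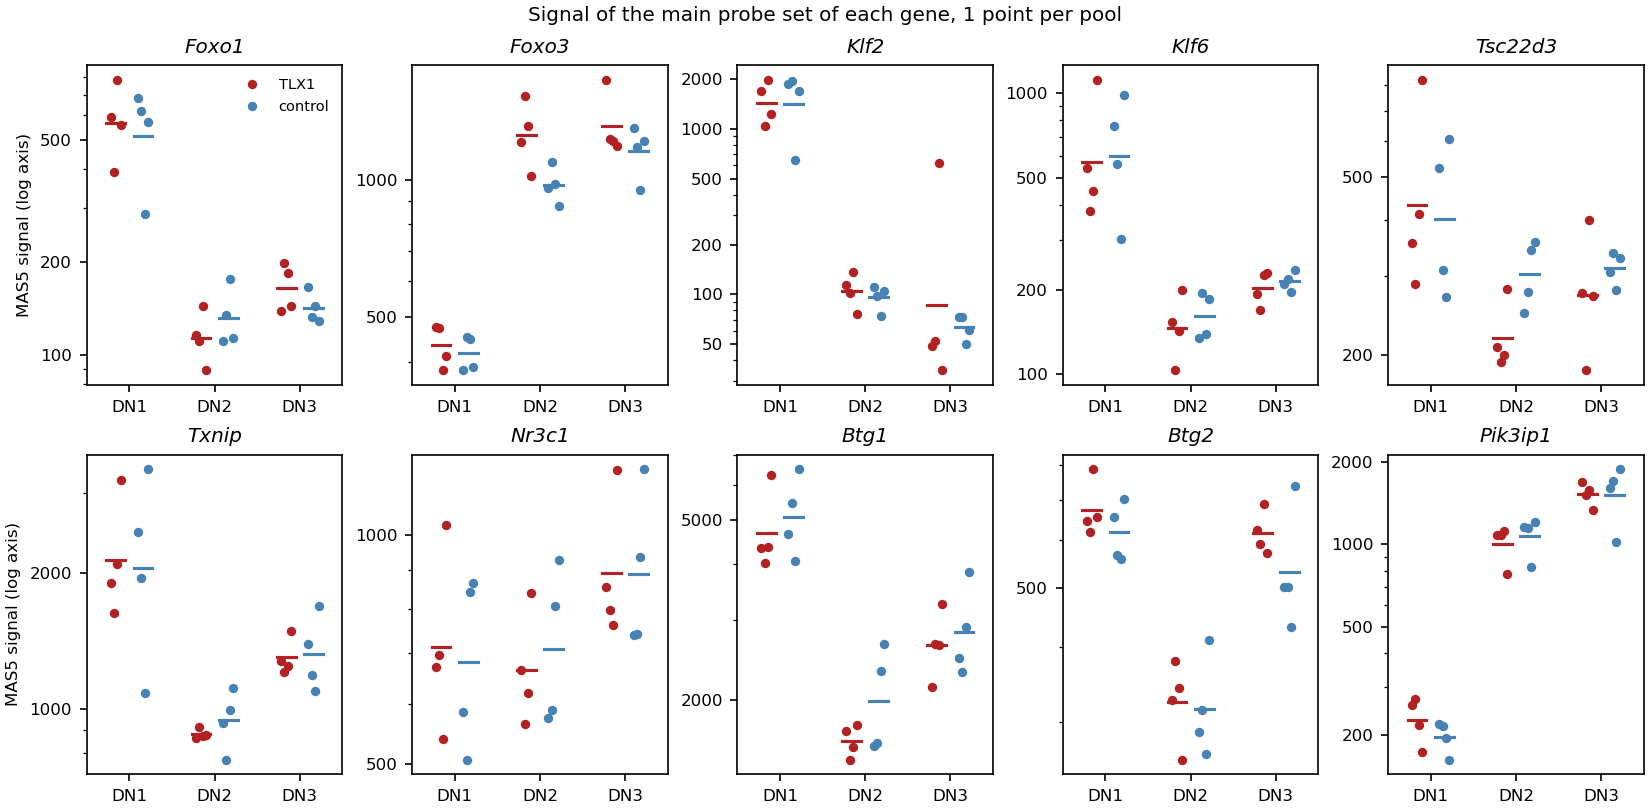
MAS5 signal of the main probe set of each of the 10 genes (log axis) at DN1, DN2 and DN3, with 1 point per pool, TLX1 in red left of control in blue, and a bar at the mean of the log2 signals of the 4 pools. *Foxo3* and *Pik3ip1* were lowest at DN1, *Klf2* was at 647 to 1971 at DN1 and at 74.4 to 136 at DN2, and 1 TLX1 DN3 array held *Klf2* at 624.

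The NK cell and myeloid transcripts fell at the same step as these genes. The summed signal of 6 NK cell markers was 12110 to 28760 at DN1, 4247 to 5658 at DN2 and 3562 to 5214 at DN3. All 6 fell from DN1 to DN2, against 31.2% of all probe sets. Of the 6, *Ncr1*, *Klrd1*, *Prf1* and *Eomes* were at 17.5 or below at DN2, with *Ncr1*, an activating receptor, at 1333 to 3883 at DN1 and 7.28 to 16.4 at DN2, and *Klrd1*, the CD94 chain, at 1467 to 4212 and 10.2 to 17.5. *Gzma* and *Nkg7*, which encode cytotoxic granule proteins, stayed bright at DN2, at 2343 to 3037 and 1852 to 2569, and made up nearly all of the sum there. The 8 of 9 myeloid and dendritic markers that passed the filter all fell at this step, against the same 31.2%. The summed signal of the 9 was 9642 to 21870 at DN1, 2162 to 2525 at DN2 and 1502 to 2148 at DN3. *Itgax*, which encodes CD11c, was at 434 to 1501 at DN1 and at 13.7 to 47.7 at DN2. Many of the 10 genes are expressed in NK and myeloid cells too, and the part of these cells in the falls from DN1 to DN2 was not tested. From DN2 to DN3, 2 of 6 NK markers and 5 of 8 myeloid markers fell further and 0 rose, against 4.07% and 6.93% of all probe sets.

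*Foxo1* (probe set 1416983_s_at), the main FoxO factor of naive lymphocytes, fell after DN1. *Foxo1* had signals of 594, 392, 783 and 557 in TLX1 pools 1 to 4 at DN1, against 681, 621, 286 and 573 in control pools 1 to 4. At DN2 it was at 116, 110.3, 144 and 88.8 in TLX1 pools and at 111, 135, 177 and 113 in control pools. Each DN1 array lay above every DN2 array. *Foxo1* fell by 2.14 on the log2 scale from DN1 to DN2 (standard error 0.18, adjusted p = 1.7e-07), in 8 of 8 pools. The DN3 signals of *Foxo1* were 139, 198, 184 and 143 in TLX1 pools and 166, 132, 144 and 128 in control pools, within the DN2 range in 6 of 8. The log2 change from DN2 to DN3 was 0.33 (standard error 0.18, adjusted p = 0.248), higher in 6 of 8 pools. Without control pool 3 and TLX1 pool 2 it was 0.34 and passed the test (adjusted p = 0.0247).

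*Foxo3* (1434831_a_at), a second FoxO factor that also acts in blood stem cells, went the other way. *Foxo3* had signals of 477, 474, 383 and 411 in TLX1 and 383, 454, 448 and 390.1 in control pools at DN1. At DN2 the signals were 1208, 1525, 1313 and 1017 in TLX1 and 961, 1095, 979 and 878 in control pools, all above every DN1 array. *Foxo3* rose by 1.38 from DN1 to DN2 on the log2 scale (standard error 0.092, adjusted p = 1.98e-08), in 8 of 8 pools. DN3 arrays held 1654, 1228, 1218 and 1186 in TLX1 and 1298, 1178, 951 and 1218 in control pools, and the log2 change from DN2 was 0.15 (standard error 0.092, adjusted p = 0.29), which is not told apart from the spread between pools. So the main probe sets of *Foxo1* and *Foxo3* moved in opposite directions at the same step, each in 8 of 8 pools.

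*Pik3ip1* (1428332_at), a membrane protein that binds the catalytic subunit of PI3K and lowers its activity, had the largest rise among the 10. The DN1 signals of *Pik3ip1* were 257, 271, 217 and 174 in TLX1 and 219, 215, 194 and 163 in control pools. DN2 arrays were at 1082, 1083, 1116 and 778 in TLX1 and 1161, 1153, 826 and 1211 in control pools, and DN3 arrays at 1698, 1516, 1579.7 and 1339 in TLX1 and 1612, 1707, 1017 and 1889.9 in control pools. No DN1 array overlapped those of the later stages. *Pik3ip1* rose by 2.30 from DN1 to DN2 (standard error 0.10, adjusted p = 4.92e-10) and by a further 0.55 from DN2 to DN3 (standard error 0.10, adjusted p = 0.0037) on the log2 scale, each in 8 of 8 pools. From DN1 to DN3 this was 7.21-fold. None of the other 9 genes rose at both steps.

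Genes upstream of FoxO proteins and related forkhead genes were called no more often than all probe sets from DN1 to DN2. Of 7 such genes (*Foxo4*, *Foxp1*, *Sgk1*, *Akt1*, *Akt2*, *Pdpk1* and *Tsc1*), 1 rose and 2 fell at this step, against 28.5% and 31.2% of all probe sets. From DN2 to DN3, 2 rose and 0 fell, against 6.93% and 4.07%. The median log2 changes were -0.0063 and 0.19, against -0.058 and 0.075 over all probe sets. Among those called, *Sgk1*, a kinase that phosphorylates FoxO proteins as Akt does, fell by 2.12 from DN1 to DN2 (adjusted p = 3.61e-07), and *Foxp1*, a forkhead repressor that keeps naive T cells at rest, rose by 0.37 (adjusted p = 0.000719).

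*Klf2* (1448890_at, its only probe set), a zinc finger factor of quiescent and recirculating T cells and a known FoxO1 target, had the largest fall. *Klf2* had signals of 1677, 1031, 1971 and 1218 in TLX1 and 1858, 1929.6, 647 and 1682 in control pools at DN1. At DN2 it was at 113, 101, 136 and 76.4 in TLX1 and 111, 97.1, 74.4 and 105 in control pools. *Klf2* fell by 3.82 on the log2 scale, 14.1-fold (standard error 0.33, adjusted p = 2.37e-07), in 8 of 8 pools. The DN3 signals were 48.8, 52.4, 624 and 34.8 in TLX1 and 73.2, 73.3, 49.9 and 61.3 in control pools, so that TLX1 pool 3 held *Klf2* 8.51-fold above the highest of the other 7 DN3 arrays and close to the lowest DN1 array. The other 7 pools were all lower at DN3 than at DN2. With all pools the log2 change from DN2 to DN3 was -0.43 (standard error 0.33, adjusted p = 0.412), and without TLX1 pool 3 it was -0.85 and passed the test (adjusted p = 0.00721).

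*Klf6* (1433508_at), a KLF factor that is widely expressed and answers to growth signals, fell after DN1. *Klf6* had DN1 signals of 542, 381, 449.8 and 1117 in TLX1 and 766, 558, 303 and 986 in control pools. The DN2 signals were 153, 103, 142 and 199 in TLX1 and 134, 194, 139 and 185 in control pools, below every DN1 array. *Klf6* fell by 1.93 on the log2 scale (standard error 0.17, adjusted p = 2.18e-07) in 8 of 8 pools. At DN3 it was at 193, 169, 225 and 228 in TLX1 and 209, 218, 196 and 235 in control pools. The log2 change from DN2 to DN3 was 0.45 and did not pass the test (standard error 0.17, adjusted p = 0.0943), although DN3 was above DN2 in 8 of 8 pools.

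*Tsc22d3* (1420772_a_at) encodes GILZ, a protein induced by glucocorticoids and by FoxO3 in lymphocytes. *Tsc22d3* had DN1 signals of 357, 288, 414 and 823 in TLX1 and 523, 309, 269 and 607 in control pools, and DN2 signals of 209, 193, 200.1 and 281 in TLX1 and 249, 276, 343 and 357 in control pools. The stages overlapped. *Tsc22d3* fell by 0.70 from DN1 to DN2 (standard error 0.18, adjusted p = 0.00338), in 7 of 8 pools, with control pool 3 the exception. At DN3 the signals were 275, 185, 400.4 and 271 in TLX1 and 307, 338, 280.1 and 329.6 in control pools, and the log2 change from DN2 was 0.18 (standard error 0.18, adjusted p = 0.522). From DN1 to DN3 it fell by 0.52 (standard error 0.18, adjusted p = 0.0224). This call was lost without control pool 1, control pool 4 or TLX1 pool 4 (log2 changes of -0.45, -0.43 and -0.36, adjusted p = 0.0649, 0.0849 and 0.093).

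*Nr3c1* (1460303_at), the glucocorticoid receptor gene, had a change close to 0 from DN1 to DN2 and rose at DN3. *Nr3c1* had signals of 671, 695, 539 and 1031 in TLX1 and 584, 506, 842 and 864 in control pools at DN1, and of 665, 563, 620.1 and 839.8 in TLX1 and 574, 589, 806 and 928 in control pools at DN2. The log2 change between these stages was -0.022 (standard error 0.068, adjusted p = 0.793). At DN3 the signals were 856, 798, 762 and 1219 in TLX1 and 739, 741, 936 and 1222 in control pools. The stages overlapped, while within pools *Nr3c1* rose by 0.38 from DN2 to DN3 (standard error 0.068, adjusted p = 0.00366) in 8 of 8 pools. Of 7 known glucocorticoid receptor target genes that passed the filter, 5 fell and 1 rose from DN1 to DN2, against 31.2% and 28.5% of all probe sets. *Fkbp5*, a chaperone of the receptor, was the 1 that rose (log2 change 1.61, adjusted p = 2.22e-05), and *Zbtb16*, the PLZF factor of innate-like lymphocytes, fell by 2.24 (adjusted p = 8.67e-07).

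*Txnip* (1415996_at) binds thioredoxin and restrains glucose uptake. *Txnip* had DN1 signals of 1899.8, 1630.2, 2085 and 3199.9 in TLX1 and 2456, 1951, 1088 and 3385 in control pools. The DN2 signals were 862, 912, 873 and 879 in TLX1 and 929.8, 774, 995 and 1113 in control pools, and control pool 3 at DN1 lay within this range. *Txnip* fell by 1.20 (standard error 0.14, adjusted p = 4.6e-06) in 8 of 8 pools. DN3 arrays held 1279, 1207, 1245 and 1486 in TLX1 and 1390.0, 1190.0, 1099 and 1685 in control pools. *Txnip* rose by 0.52 from DN2 to DN3 (standard error 0.14, adjusted p = 0.0295) in 8 of 8 pools, a call close to the threshold. It was lost in 7 of the 8 fits that left out 1 pool, all but that without control pool 3 (adjusted p of 0.0511 to 0.0848 in the 7, log2 changes of 0.49 to 0.55), and without both off-gate pools it was 0.61 (adjusted p = 0.00362).

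Among the genes around *Txnip*, *Txn1*, which encodes thioredoxin itself, rose by 0.47 from DN1 to DN2 (adjusted p = 2.62e-05). *Arrdc3*, an arrestin-like paralog of *Txnip*, fell by 0.35 (adjusted p = 0.000471), and *Mlxip* and *Mlx*, the glucose-sensing factors that bind the E-box, fell by 0.28 and 0.42 (adjusted p = 0.00191 and 0.000623). These changes were small beside that of *Txnip*. In all, 1 of 6 such genes rose and 3 fell, against 28.5% and 31.2% of all probe sets.

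*Btg1* (1426083_a_at), which recruits deadenylases to messenger RNA and holds back division, was the brightest of the 10 probe sets at DN1. *Btg1* had signals of 4335, 4029, 4358 and 6318 in TLX1 and 4674, 5473, 4057 and 6499 in control pools at DN1, 1699.6, 1472, 1567 and 1757 in TLX1 and 1577, 1599, 2311 and 2655 in control pools at DN2, and 2134, 2652, 2638 and 3267 in TLX1 and 2477, 2303, 2903 and 3838 in control pools at DN3. Each DN1 array was above every DN2 and DN3 array. *Btg1* fell by 1.45 from DN1 to DN2 (standard error 0.10, adjusted p = 2.55e-08) and rose by 0.61 from DN2 to DN3 (standard error 0.10, adjusted p = 0.00203), each in 8 of 8 pools.

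*Btg2* (1448272_at), its close relative and a p53 target, fell at DN2 and rose at DN3. *Btg2* had signals of 646, 619.6, 788 and 656 in TLX1 and 655, 568, 559.9 and 704 in control pools at DN1, and of 326, 379, 342 and 259.6 in TLX1 and 289, 314, 266 and 410.4 in control pools at DN2. All DN1 arrays lay above all DN2 arrays. At DN3 it was at 624, 593, 689 and 571 in TLX1 and 502, 503, 430.3 and 739.5 in control pools, above every DN2 array. *Btg2* fell by 1.02 (standard error 0.076, adjusted p = 5.73e-08) and then rose by 0.84 (standard error 0.076, adjusted p = 2.05e-05), each in 8 of 8 pools, and the rise was the largest of the 10 genes at this step. From DN1 to DN3 the log2 change was -0.17 (standard error 0.076, adjusted p = 0.0688), and it passed the test without control pool 4 (-0.22, adjusted p = 0.0383).

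**Figure D2:**
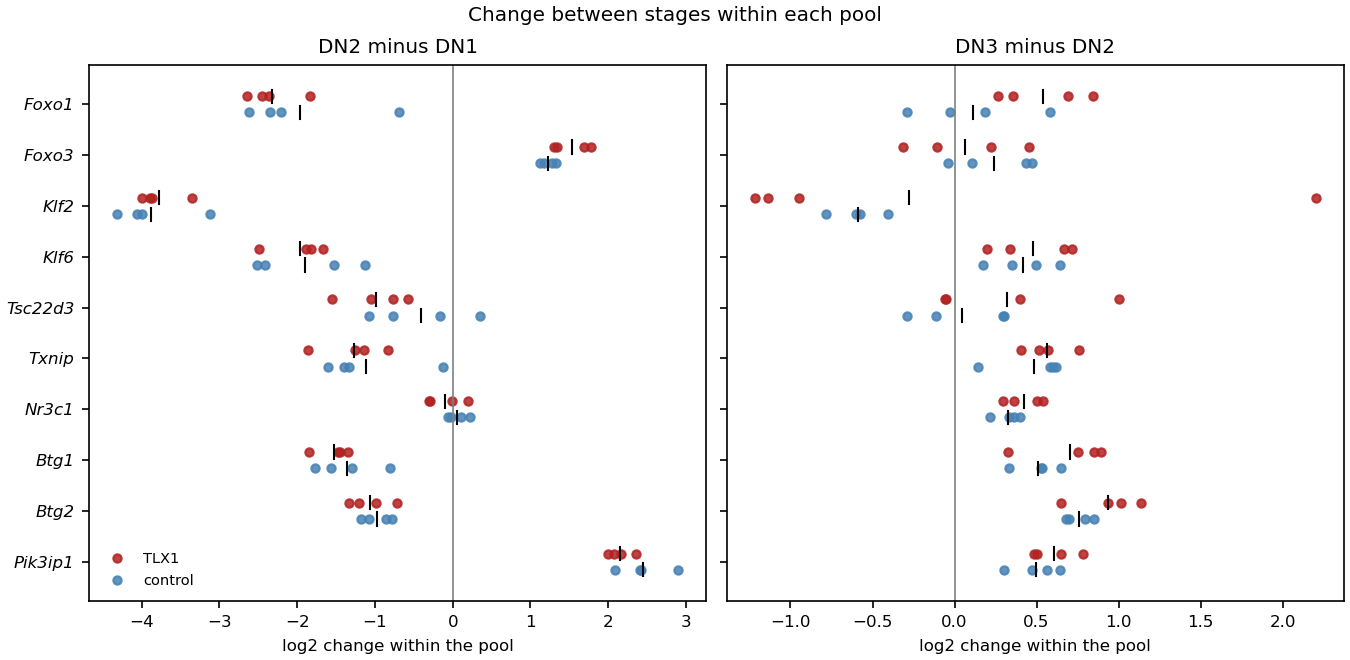
Log2 change within each pool from DN1 to DN2 (left) and from DN2 to DN3 (right) of the 10 genes, with 1 point per pool, TLX1 in red above control in blue, and a black bar at the mean of the 4 pools. At the first step 6 genes fell in all 8 pools and *Foxo3* and *Pik3ip1* rose in all 8, and at the second the *Klf2* point of TLX1 pool 3, at 2.20, lies apart from the other 7.

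The other probe sets of the genes mostly gave the same directions, with *Nr3c1* the exception. All 19 that passed the filter had the sign of their gene's main probe set from DN1 to DN2 and from DN2 to DN3, and 17 of 19 from DN1 to DN3. Of them, 15, 7 and 13 passed the test in that direction and 0 passed it in the other. The main *Nr3c1* value from DN1 to DN2 was close to 0 (-0.022), so its sign is no check. A dim *Nr3c1* probe set (1421866_at) passed the test at this step as lower (-0.50, adjusted p = 0.0019). The opposite signs from DN1 to DN3 were both of *Nr3c1* probe sets (-0.017 and -0.26), while its main probe set rose by 0.35 (adjusted p = 0.000426). They share samples and genes with the main probe sets and are a check of the reading, not further replicates.

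Genes known as FoxO targets in lymphocytes or other cells moved mostly as *Foxo1* and *Klf2* did at the first step. Of 19 such genes, 13 fell and 3 rose from DN1 to DN2 (median log2 change -0.92, against -0.058 over all probe sets), and 0 fell and 3 rose from DN2 to DN3 (median 0.16, against 0.075). *Il7r*, the interleukin 7 receptor chain, fell by 1.99 at the first step (adjusted p = 1.18e-07), *Rbl2*, the pocket protein p130, by 2.06 (adjusted p = 1.73e-09), and *Sesn3*, a stress-induced inhibitor of mTORC1 signalling, by 1.72 (adjusted p = 1.67e-08). *Gabarapl1*, an autophagy gene, rose by 1.46 (adjusted p = 8.71e-08). NK cell and myeloid transcripts fell at this first step too, and the part of those cells in the values of the listed genes was not tested. Of *Bcl2l11*, *Sesn3* and *Fbxo32*, which rose from DN2 to DN3, *Bcl2l11*, the death activator Bim, had the largest log2 change, 0.71 (adjusted p = 0.000768). Of 9 other quiescence genes, 5 fell and 1 rose at the first step and 3 rose at the second. For both lists the shares over all probe sets were 31.2% lower and 28.5% higher at the first step. At the second they were 4.07% lower and 6.93% higher. *Slfn2*, a Schlafen family gene needed for lymphocyte quiescence, fell by 2.53 (adjusted p = 2.05e-09) and rose by 0.48 (adjusted p = 0.0341). The lists share genes and are not independent. *Foxp1*, the quiescence gene that rose at the first step, and *Tsc1* are also in the upstream list. *Sgk1* is in both the upstream and the glucocorticoid list, and the quiescence list shares a gene with the FoxO targets.

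Genes of proliferation ran opposite to most of the 10 at the first step. All 17 rose from DN1 to DN2 (median log2 change 0.92), against 28.5% of all probe sets. From DN2 to DN3, 1 of 17 fell (*Mki67*, the Ki-67 antigen, by 0.51, adjusted p = 0.0452) and 0 rose (median -0.46). Over all probe sets 4.07% fell and 6.93% rose at this second step, so these counts were near the general shares. Immediate early genes, which dissociation and sorting of cells can induce, also fell for the most part at the first step. Of 12 that passed the filter, 8 fell and 2 rose (median -1.32), against 31.2% and 28.5% of all probe sets. From DN2 to DN3, 0 of the 12 passed the test, against 4.07% lower and 6.93% higher over all. Their summed signal was 3897 to 6916 in TLX1 and 4153 to 10040 in control pools at DN1, 1411 to 3969 in TLX1 and 1369 to 10290 in control pools at DN2, and 1801 to 4541 in TLX1 and 1234 to 11610 in control pools at DN3. Control pool 2 held the highest sum at all 3 stages. Between genotypes 0 of the 12 passed the adjusted test at any stage, and their median log2 fold changes, TLX1 over control, were -0.053 at DN1, -0.92 at DN2 and -0.75 at DN3. The part of this in the values of the 10 genes was not tested.

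**Figure D3:**
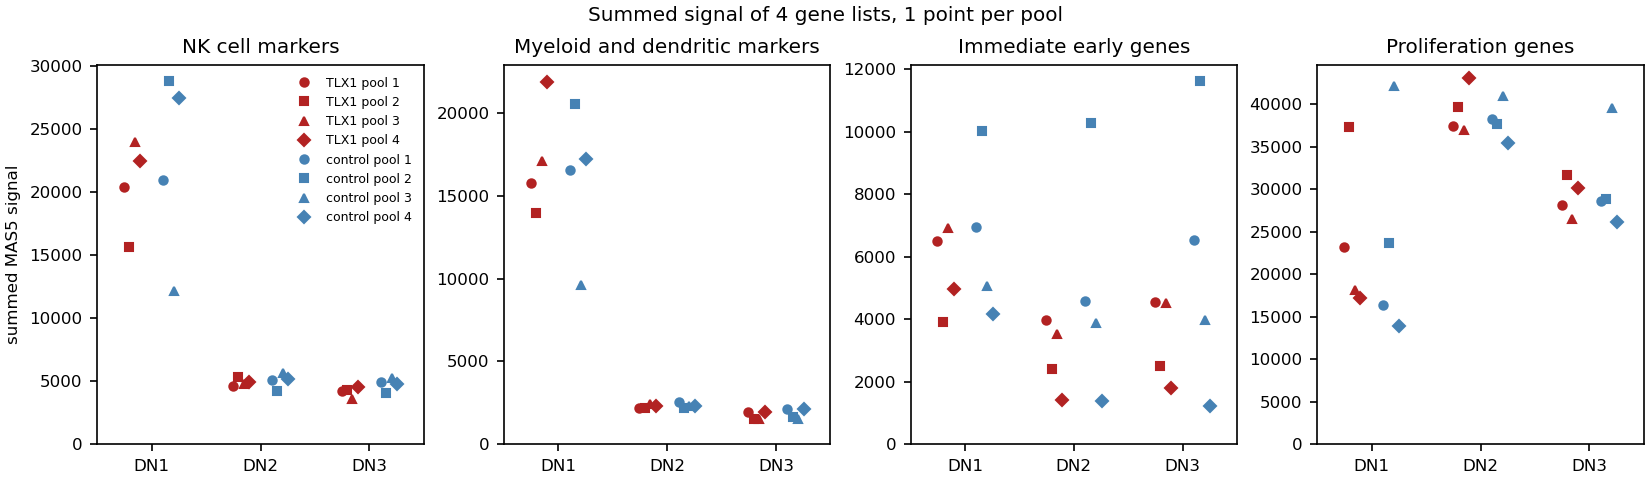
Summed MAS5 signal of 4 gene lists by pool and stage (DN1, DN2, DN3), TLX1 in red left of control in blue, with a symbol for each pool number. NK cell markers were at 12110 to 28760 at DN1 and at 4247 to 5658 at DN2, and the proliferation genes of TLX1 pool 2 and control pool 3 lay above those of the other 6 pools at DN1.

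Some pools differed from the others in a shared way. TLX1 pool 2 and control pool 3, the pools with the most cells outside the gates, each had the lowest signal of their genotype for 7 of the 10 genes at DN1. They also had the lowest sums of NK cell markers (15640 in TLX1 pool 2 and 12110 in control pool 3, against 20390 to 28760 in the other 6) and the highest sums of proliferation genes. The pools numbered 4 had the highest signal of their genotype for 5 of 10 genes in TLX1 and 6 of 10 in control pools at DN1. At DN3 control pool 3 was again the lowest control pool for 7 of 10 genes and had the highest proliferation sum, 39630, against 26170 to 31690 in the other 7 pools. Control pool 4 was the highest control pool for 6 of 10 genes at DN2 and at DN3. Without TLX1 pool 2 and control pool 3, all 9 calls from DN1 to DN2 were kept in the same direction, and on the log2 scale *Foxo1* fell by 2.44, *Klf2* fell by 4.02 and *Txnip* fell by 1.43.

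Between genotypes none of the 10 genes passed the adjusted test at any stage. This comparison asks whether the *TLX1* transgene changed the level of these genes in these thymocytes. With 4 TLX1 and 4 control pools at a stage, 0 of 10 main probe sets had an adjusted p under 0.05 at DN1, DN2 or DN3, against 0.00370%, 0.00370% and 0.0185% of all probe sets. Log2 fold changes (TLX1 over control) ran from -0.12 to 0.20 at DN1, from -0.47 to 0.36 at DN2 and from -0.20 to 0.44 at DN3. At an unadjusted p under 0.05, 0, 1 and 0 genes passed, against 1.72%, 3.53% and 6.02% of all probe sets, and 0 of 10 reached the methods' threshold (p not above 0.05, fold change not below 1.4) at DN1, DN2 or DN3. Over all probe sets this threshold took in 0.914%, 0.925% and 3.33% as higher in TLX1 and 0.622%, 1.58% and 0.995% as lower. The methods' t-test, unpaired, with that threshold gave 0 of 10 at each stage too. The pools of the genotypes overlapped for all 10 genes at all 3 stages, while they did not overlap for 0.725%, 1.39% and 2.64% of all probe sets that were higher and 0.529%, 1.35% and 1.25% that were lower.

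The intervals show how large a difference these pools could have held. The 95% interval of the fold change lay within 2-fold in either direction for 9 of 10 genes at DN1, 10 of 10 at DN2 and 9 of 10 at DN3. The exceptions were *Klf6* at DN1, from -1.08 to 0.93 on the log2 scale, and *Klf2* at DN3, from -1.45 to 2.33. The *Klf2* value of 0.44 (standard error 0.82) rested on TLX1 pool 3, and without that pool it was -0.51. For *Foxo1* the log2 fold change at DN1 was 0.14 (standard error 0.32), that at DN2 was -0.22 (standard error 0.21) and that at DN3 was 0.21 (standard error 0.17). For *Pik3ip1* the same 3 values were 0.20 (standard error 0.20), -0.10 (standard error 0.18) and 0.011 (standard error 0.21). A dimmer *Foxo1* probe set (1416982_at) had 0.58 at DN3 (standard error 0.16, unadjusted p = 0.00613, adjusted p = 0.568 from limma). Its signals were 51.9 to 72.6 in TLX1 and 36.8 to 49.4 in control pools, without overlap, as was so for 2.64% of all probe sets in that direction. Another *Foxo1* probe set (1416981_at) had 0.068 (standard error 0.26) at this stage.

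The gene with an unadjusted p under 0.05 was *Tsc22d3* at DN2, where TLX1 pools were lower by a log2 fold change of -0.47 (standard error 0.18), with an unadjusted p of 0.0315 and an adjusted p of 1 from limma. Its signals were 193 to 281 in TLX1 and 249 to 357 in control DN2 pools, with only TLX1 pool 4 above any control pool. *Foxo3* at DN2 was next, with 0.36 (standard error 0.16), an unadjusted p of 0.0512 from limma, and signals of 1017 to 1525 in TLX1 against 878 to 1095 in control pools. A second *Foxo3* probe set had 0.062 (standard error 0.12) at this stage, with signals of 416 to 469 in TLX1 and 389 to 452 in control pools, and the other, a dim one, had 1.55 (standard error 0.62). Neither gene's value holds against the number of probe sets tested. The other 2 *Tsc22d3* probe sets had log2 fold changes of -0.094 and -0.72 at this stage, and for the probe set at -0.72 the pools did not overlap, as was so for 1.35% of all probe sets in that direction. The summed signal of 8 glucocorticoid receptor target genes was 4901 to 5126 in TLX1 and 5213 to 8542 in control pools at DN2, and 5120 to 5542 in TLX1 and 5808 to 9271 in control pools at DN3, with no overlap at either stage. At DN1 it was 6113 to 7069 in TLX1 and 6736 to 8403 in control pools. Of the 7 that passed the filter, 0 passed the adjusted test between genotypes at any stage, and their median log2 fold changes were 0.12, -0.32 and -0.16 at DN1, DN2 and DN3. Control pool 2, highest in the immediate early genes, was also highest in this sum at each stage, and its part was not tested. The immediate early and glucocorticoid lists share a gene, so their sums are not independent. A sum without overlap was not particular to this list. The thymic stroma sum at DN1 was 304 to 369 in TLX1 and 271 to 291 in control pools.

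**Figure D4:**
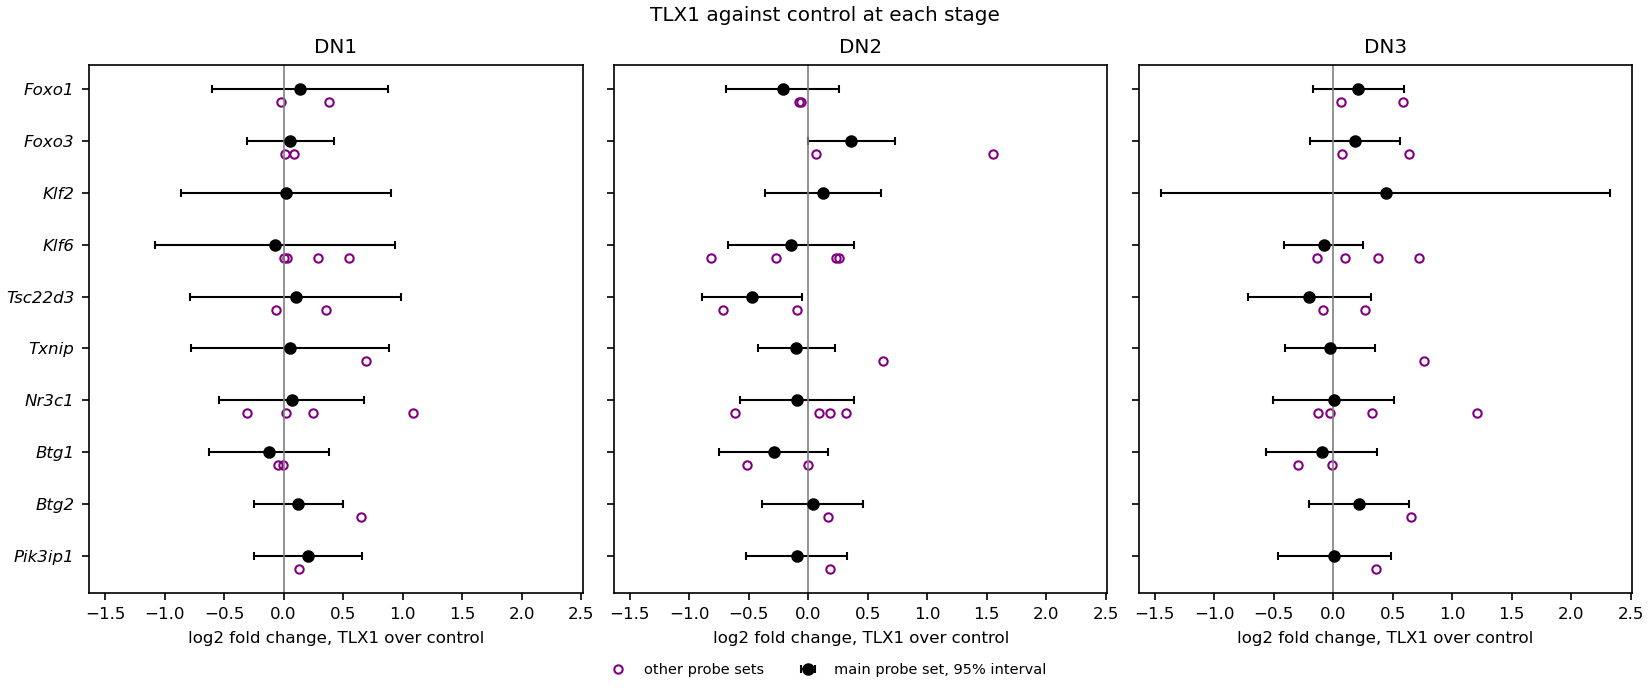
Log2 fold change, TLX1 over control, of the 10 genes at DN1, DN2 and DN3. Filled points are main probe sets with 95% intervals from limma (4 pools against 4) and open circles are the other probe sets of the gene that passed the filter. The main probe sets lie between -0.47 and 0.44, and the other probe sets lie between -0.82 and 1.55.

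Some other probe sets of the same genes gave other values than the main ones. A second *Txnip* probe set had signals of 171, 169, 161 and 169 in TLX1 DN3 pools, against 88.8, 102, 83.4 and 125 in control DN3 pools, with no overlap, as was so for 2.64% of all probe sets in that direction. Its log2 fold change was 0.77 (standard error 0.15, unadjusted p = 0.000898, adjusted p = 0.367 from limma), and it was 0.70 at DN1 and 0.63 at DN2, while the main *Txnip* probe set, the brighter of the 2 in every pool, had 0.057, -0.10 and -0.025. A probe set of *Nr3c1* had 57.2, 40.6, 51.7 and 38.0 in TLX1 DN1 pools, against 27.9, 22.4, 23.5 and 15.1 in control DN1 pools. Its log2 fold change was 1.09 at DN1 (standard error 0.24, unadjusted p = 0.00154), 0.31 at DN2 and 1.21 at DN3, against 0.067, -0.093 and 0.0040 for the main probe set. A second *Btg2* probe set gave log2 fold changes of 0.65, 0.16 and 0.65 over the stages, against 0.12, 0.037 and 0.21. These 3 probe sets appear in the study's supplementary lists and so were chosen on these arrays. Over all 19 other probe sets, 2, 1 and 4 reached the methods' threshold at DN1, DN2 and DN3, each higher in TLX1, against 0.914%, 0.925% and 3.33% of all probe sets, and 0 passed the adjusted test.

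An index of RNA quality was on average lower in TLX1 than in control pools at all 3 stages, without overlap at DN3. The 3'/5' index, which sets the 3' controls for *Actb* and *Gapdh* against the 5' ones as a mean log2 difference, was 0.10 to 0.34 in TLX1 and 0.50 to 0.57 in control DN3 pools (exact permutation test, two-sided, p = 0.0286, the smallest that 4 against 4 pools can give, adjusted p = 0.0856 over 3 stages). It was -0.025 to 0.15 in TLX1 and 0.038 to 0.41 in control pools at DN1, and 0.12 to 0.37 in TLX1 and 0.24 to 0.99 in control pools at DN2. The same permutation test gave p = 0.0857 at DN1 and p = 0.0571 at DN2 (adjusted p = 0.0857 and 0.0856). With the index as a covariate, the second *Txnip* probe set had a log2 fold change of 0.87 at DN3 with a standard error of 0.43, and 0 of the 10 main probe sets passed the adjusted test at any stage. The DN1 values of several main probe sets were larger in this fit, with 0.67 (standard error 0.37) for *Foxo1*, 0.68 (0.43) for *Klf2*, 0.69 (0.49) for *Klf6*, 0.60 (0.49) for *Tsc22d3* and 0.74 (0.37) for *Txnip*, and the 2-fold intervals given before are those of the fit without it. At DN3 the values ran from -1.92 for *Klf2* to 0.73 for *Nr3c1*. Since the groups do not overlap in the index at DN3, the index and the genotype cannot be told apart there.

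The changes between stages were not shown to differ between genotypes. Of the 10 genes, 0 had an adjusted p under 0.05 when the TLX1 effect was compared between stages, as had 0.00% of all probe sets, and 0 had an unadjusted p under 0.05 at any step, against 3.60% of all probe sets for DN1 to DN2, 2.89% for DN2 to DN3 and 3.23% for DN1 to DN3. The lowest unadjusted p was 0.12, for *Foxo3* from DN1 to DN2, where the TLX1 change was larger by 0.30 on the log2 scale (standard error 0.18, limma). For *Tsc22d3* at this step the TLX1 change was -0.99 and the control change -0.41, a difference of -0.58 (standard error 0.35). The standard errors of these differences ran from 0.14 for *Nr3c1* to 0.66 for *Klf2*, so precision differed between genes. With 4 pools a genotype, a difference within this precision is neither shown nor excluded.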

How the data were processed

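RNA of sorted DN1, DN2 and DN3 thymocytes was hybridised to 24 Affymetrix mouse arrays, and each of 8 pools gave 1 array per stage. The deposited intensity values are linear MAS5 signals, for which the submitters' processing notes name the Affymetrix Expression Console. Each array had a 2% trimmed mean of 150.001. Detection flags and the further normalization of the study's methods were not used here.

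Of 45101 probe sets, 64 array controls served only for the 3'/5' index. A floor of 1 was set (it held 4.37% to 11.3% of the probe sets) and log2 was taken without rescaling. Of the remaining probe sets, the top 60% by mean log2 signal were kept (27022, with a mean of at least 9.02 as a signal). Probe sets were named from the platform annotation, in which 34945 match 1 gene, 932 several and 9160 none. MAS5 signals near background vary widely between arrays, so fold changes of dim probe sets are less certain, and precision is limited by the 4 pools of each genotype.

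Genotypes were compared at each stage over 8 arrays with limma 3.58.1 (R 4.3.3, with tables read by data.table, version 1.17.8), and stages over 24 arrays in a fit that held each pool as a block, whose interaction term compared the step between genotypes. P-values were adjusted by the method of Benjamini and Hochberg over all kept probe sets. The scripts were tested on simulated data. All 10 genes are described, and at most the 4 genes of smallest p are named from each further list (FoxO upstream and partner genes, FoxO targets, quiescence, glucocorticoid targets, *Txnip* regulators, immediate early and proliferation genes, and cell type markers). *Fkbp5*, *Mki67*, *Bcl2l11*, *Fbxo32* and the markers *Itgax*, *Ncr1*, *Klrd1*, *Prf1*, *Eomes*, *Gzma* and *Nkg7* were named after their values were seen. The genes, lists and alternatives were chosen with earlier results of these data known. List genes without a probe set of their own are not analysed here. Summed signals of a list hold 1 probe set per gene, also those below the filter.

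Of the remaining marker lists, early thymocyte genes rose for 5 of 8 and fell for 1 from DN1 to DN2, B lineage genes rose for 2 of 5 and fell for 1, thymic stroma genes rose for 1 of 4 and fell for 1, mast cell genes rose for 1 of 2 and fell for 1, and 0 of 3 erythroid genes passed the filter. Over all probe sets 28.5% rose and 31.2% fell at this step. None of the lists had a gene called between genotypes. The alternatives were quantile normalization, median centring, no filter, a 40% filter, an offset of 32, the median of a gene's probe sets, the index or sex as a covariate, other blocks, the methods' unpaired test, leaving out the 2 pools with the most cells outside the gates, and leaving out each pool in turn.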

Additional observations from a re-analysis of the deposited data

Results flagged for a closer look

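In 5 of 60 groups of 4 pools (10 genes, 2 genotypes, 3 stages), the highest or lowest pool was far from the other 3 by Dixon's criterion, which chance meets in about 1 of 20 groups. *Klf2* was at 624 in TLX1 DN3 pool 3, against 34.8 to 52.4 in the other TLX1 DN3 pools. *Klf2* was also low in control DN1 pool 3, at 647, against 1682 to 1930 in the other control DN1 pools. *Foxo3* was at 1654 in TLX1 DN3 pool 1, against 1186.5 to 1228 in the other TLX1 DN3 pools. *Pik3ip1* was low in TLX1 DN2 pool 4, at 778, against 1082 to 1116 in the other TLX1 DN2 pools, and in control DN2 pool 3, at 826, against 1153 to 1211 in the other control DN2 pools. Control pool 3, which had many cells outside the gates, holds 2 of the 5.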

How the results depend on the processing

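From DN1 to DN2 the 2 rises and 7 falls were kept in all 17 alternatives. From DN2 to DN3 the count of falls was 0 to 1 over the fits without 1 pool, with *Klf2* called without TLX1 pool 3, and the *Txnip* rise was lost in 9 of 17 alternatives, with median centring (adjusted p = 0.0686), with no filter (adjusted p = 0.0714) and in 7 of the 8 fits without 1 pool. From DN1 to DN3 *Btg2* passed the test with an offset of 32, quantile normalization and a 40% filter (adjusted p = 0.0481, 0.0393 and 0.0497). Between genotypes 0 of 10 genes were called at any stage in any of 20 alternatives.

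Some values changed sign, none of them with a call under either setting, and the cause was not tested. These are log2 fold changes, TLX1 over control, except where steps are given. Under adjustment for the 3'/5' index, the value was 0.24 for *Btg1* at DN1, 0.46 for *Btg1* at DN3, -0.52 for the second *Btg2* probe set at DN2, -0.11 for *Btg2* at DN2, -0.076 for *Foxo1* at DN3, -0.016 for *Foxo3* at DN1, -0.15 for *Foxo3* at DN3, -0.16 for *Klf2* at DN2, -1.92 for *Klf2* at DN3, 0.69 for *Klf6* at DN1, 0.24 for *Klf6* at DN3, -0.86 for the second *Nr3c1* probe set at DN2, 0.0071 for *Nr3c1* from DN1 to DN2, -0.047 for *Nr3c1* at DN1, 0.11 for *Nr3c1* at DN2, -0.21 for *Pik3ip1* at DN3 and 0.31 for *Txnip* at DN3. With quantile normalization, the value was 0.015 for *Btg1* at DN1, 0.029 for *Btg1* at DN3, -0.0086 for *Nr3c1* at DN3 and 0.0094 for *Txnip* at DN3. Without TLX1 pool 2 and control pool 3, the value was -0.22 for the second *Btg2* probe set at DN2, -0.12 for *Btg2* at DN2, -0.19 for *Klf2* at DN1, -0.054 for the second *Nr3c1* probe set at DN2, 0.031 for *Nr3c1* from DN1 to DN2, 0.048 for *Nr3c1* at DN2, -0.18 for *Pik3ip1* at DN3 and -0.12 for *Txnip* at DN1. With median centring, the value was -0.011 for *Klf2* at DN1, 0.14 for *Nr3c1* from DN1 to DN2, -0.055 for *Nr3c1* at DN3 and -0.049 for *Pik3ip1* at DN3. With the median of a gene's probe sets, the value was 0.079 for *Klf6* at DN1, -0.30 for *Nr3c1* at DN1, -0.024 for *Nr3c1* at DN3, 0.042 for *Pik3ip1* at DN2, 0.27 for *Tsc22d3* at DN3, 0.26 for *Txnip* at DN2 and 0.37 for *Txnip* at DN3. Leaving out each pool in turn gave -0.20 to 0.052 for *Btg1* at DN3, -0.19 to 0.33 for the second *Btg2* probe set at DN2, -0.046 to 0.16 for *Btg2* at DN2, -0.14 to 0.31 for *Foxo1* at DN1, -0.35 to 0.18 for *Klf2* at DN1, -0.0016 to 0.27 for *Klf2* at DN2, -0.51 to 0.88 for *Klf2* at DN3, -0.40 to 0.17 for *Klf6* at DN1, -0.30 to 0.020 for *Klf6* at DN2, -0.14 to 0.0058 for *Klf6* at DN3, -0.31 to 0.63 for the second *Nr3c1* probe set at DN2, -0.073 to 0.011 for *Nr3c1* from DN1 to DN2, -0.11 to 0.20 for *Nr3c1* at DN1, -0.21 to 0.036 for *Nr3c1* at DN2, -0.15 to 0.16 for *Nr3c1* at DN3, -0.23 to 0.023 for *Pik3ip1* at DN2, -0.18 to 0.12 for *Pik3ip1* at DN3, -0.21 to 0.30 for *Tsc22d3* at DN1, -0.25 to 0.30 for *Txnip* at DN1 and -0.11 to 0.091 for *Txnip* at DN3.

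The pools of both genotypes are numbered 1 to 4, and nothing in the labels pairs them. Deviations of same-numbered pools correlated at -0.345 to 0.482 over probe sets, and 1 of 4 TLX1 pools at each stage correlated best with its own number. With the number as a block, 0 of 10 genes were called, and the probe sets called over the whole array were 0, 1 and 2 at DN1, DN2 and DN3, against 1, 1 and 5 without it. Across alternatives, the calls over all probe sets ranged from 7690 to 17075 for DN1 to DN2 (16137 as reported), from 7379 to 15818 for DN1 to DN3 (14887) and from 1458 to 4593 for DN2 to DN3 (2972), and between genotypes from 0 to 5 at DN1, 0 to 11 at DN2 and 0 to 7 at DN3. The methods' t-test took in 272, 394 and 822 of 27022 probe sets at the methods' threshold, and 0, 0 and 4 after Benjamini-Hochberg adjustment.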
